A study of Mus musculus with 7 samples.

Results

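Upper layer 2/3 excitatory neurons of the mouse primary visual cortex (V1) were taken from the nuclei of a single-nucleus RNA-Seq (snRNA-Seq) experiment. A nucleus was a member when it had more than 200 non-viral UMIs (unique molecular identifiers, which count RNA molecules), no UMI of Gad1 or Gad2, at least 3 UMIs summed over the markers Fst, Evc2, Ccbe1, Rasgrf2, Glra3 and B230216N24Rik, and no UMI of Rorb or Foxp2. In all, 479 of 32335 kept nuclei met these criteria, which is 1.48% (95% exact binomial interval 1.35 to 1.62). The nuclei were selected on the UMIs of these 10 genes, so the levels of these genes are a description and are not a finding. The study asked which gene regulatory elements (GREs) drive expression selectively in somatostatin interneurons, and pooled 287 of them in an AAV9 library, each with 3 barcodes in the transcript. The library was injected into V1 of male C57BL/6J mice, 6 to 10 weeks old by the labels, and nuclei were captured on the droplet platform inDrops. Every nucleus analysed here came from injected cortex of this strain, there was no uninjected group, and the labels describe 1 sample in 10 libraries.

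The 10 libraries fall into 2 sets of 5, written here as 1-1 to 1-5 and 2-1 to 2-5. The study's methods state that 5 libraries were made from each animal, while the labels name no animal. Nuclei of a library and libraries of a set are not replicates of a condition, so no test was made, and intervals and floors cover counting error only. A gene was called higher or lower past the fold when its level, the summed UMIs per 10000 non-viral UMIs, differed by at least 2-fold between the members and a comparison set. The comparison sets were built by rules of the same kind. Layer 4-type nuclei had at least 2 UMIs of Rorb and none of Foxp2, layer 6-type nuclei had at least 2 UMIs of Foxp2 and none of Rorb, and both lacked Gad1 and Gad2 and had a marker sum under 3. Oligodendrocyte-type nuclei, used as a background for detection, had at least 3 UMIs of Cldn11, Mog and Mag under the same limits.

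Excitatory neurons of layers 2 and 3 are glutamatergic cells with intratelencephalic axons, which connect cortical areas and the hemispheres. They receive much of their local input from layer 4 and send output to layer 5. Transcription factors such as Cux1, Cux2, Pou3f2 and Bhlhe22 are linked to upper layer identity, and the calcium buffer calbindin (Calb1) is a usual marker of layer 2/3 cells in rodents. Of the 6 markers, Fst encodes follistatin, a secreted binder of activins, Evc2 a ciliary protein of hedgehog signalling, and Ccbe1 a secreted protein needed for the processing of VEGF-C. Rasgrf2 encodes a calcium-regulated exchange factor for Ras, Glra3 the α3 subunit of the glycine receptor, and B230216N24Rik is a long non-coding RNA. Gad1 and Gad2 make GABA, Rorb is a layer 4 transcription factor and Foxp2 one of layer 6.

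The files held 47348 barcodes, of which 15013 had 200 or fewer non-viral UMIs, with a median of 129. Non-viral UMIs of kept nuclei summed to between 2496224 and 3041931 per library. Of 25866 distinct cell barcode sequences among kept nuclei, 5476 were found in more than 1 library, as were 3 among the members. Library 2-5 stood apart in its viral UMIs, with 7.49 per other kept nucleus against at least 13.9 in each other library, and the ratios of viral UMIs and the number of GREs past the fold are given with and without it.

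Member nuclei were found in every library, from 37 in library 1-3 to 64 in library 1-2. Their share of kept nuclei was lowest in library 1-3, at 1.02% (0.719 to 1.40), had its highest value in library 2-1, at 2.07% (1.58 to 2.67), and was 1.38% (1.21 to 1.57) in set 1 and 1.60% (1.40 to 1.82) in set 2. The intervals of the sets overlapped. Members were deep nuclei. Their median was 1377 non-viral UMIs and 962 genes, against 702 UMIs and 519 genes in the other 31856 kept nuclei, and in each library their median lay above that of the others, as the plot of members by library shows. A rule that asks for 3 UMIs is met more often by deep nuclei, so depth is tied to membership. Gene levels below are per 10000 UMIs, and viral UMIs and GREs are given per nucleus, with values at like depth beside them.

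**Figure D1:**
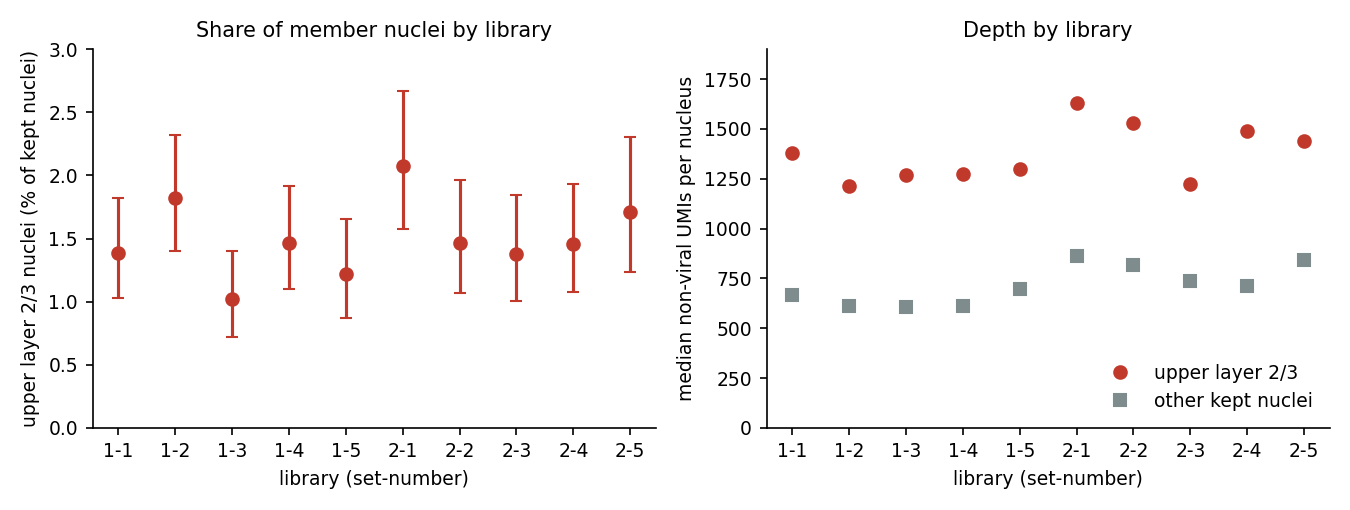
Left, member nuclei as a percentage of kept nuclei in each library, with exact 95% binomial intervals as bars. Right, median non-viral UMIs per nucleus in members (circles) and other kept nuclei (squares) of each library. Shares lay between 1.02% and 2.07%, and the median depth of members, 1213.5 to 1629 UMIs, was above that of the other nuclei, 606 to 862 UMIs, in each of the 10 libraries.

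The choice rested largely on Rasgrf2. Of the marker UMIs in members, 955 were of Rasgrf2 (55.3%), 261 of B230216N24Rik (15.1%), 158 of Evc2, 141 of Ccbe1, 134 of Glra3 and 77 of Fst (4.46%). Rasgrf2 was detected in 81.8% of members, B230216N24Rik in 29.0%, Evc2 in 20.3%, Glra3 in 19.0%, Ccbe1 in 16.1% and Fst in 9.39%. By library, Rasgrf2 in members ran from 11.2 to 17.7 UMIs per 10000 with a median of 13.3, and B230216N24Rik from 2.17 to 6.48 with a median of 3.76. No member held more than 4 of the 6 markers. A single marker was detected in 182 members, 2 markers in 239, 3 in 51 and 4 in 7. In 137 members that single marker was Rasgrf2, and the commonest pairs joined Rasgrf2 with B230216N24Rik (58 members), Evc2 (55), Glra3 (46) or Ccbe1 (30). A UMI of Rasgrf2 was also found in 21.5% of nuclei with 3 or more UMIs of Gad1 and Gad2 and in 3.08% of oligodendrocyte-type nuclei. The median depths of these sets were 1204 and 383 UMIs. Its level was 2.28 UMIs per 10000 in the former, 0.498 in the latter and 1.88 in barcodes with 200 or fewer UMIs. It was 1.25 in layer 4-type nuclei, 0.242 in layer 6-type nuclei and 1.19 in other nuclei with Slc17a7 and no Gad. The part of free RNA in these levels was not tested. Of 724 kept nuclei with a marker sum of at least 3, 194 held a Gad UMI and were removed by the rule.

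At the threshold, 302 members had a marker sum of 3 and 743 nuclei that met every other criterion had a sum of 2. The summed level of 13 upper layer genes that the rule did not use was 21.3 per 10000 in the former and 21.6 in the latter. Layer 5 genes were at 3.05 and 3.71, oligodendrocyte genes at 2.00 and 3.56, and median depth was 1267.5 and 1158 UMIs. The 102 members with a sum of 4 and the 75 with 5 or more had upper layer levels of 23.8 and 24.6, and the highest sum was 9. Among nuclei without a marker UMI the upper layer level was 12.0. The threshold thus passed through nuclei with much the same upper layer level on each side, and the level differed most between a sum of 0 and a sum of 1, where it was 19.3.

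The markers other than the one examined can also choose nuclei. With the same rule on the other 5 markers, each left-out marker was higher in the nuclei so chosen than in the rest. The rest were kept nuclei that were not chosen and had no UMI of Gad1, Gad2, Rorb or Foxp2. The ratio of its level was 2.60 (1.79 to 3.68) for Glra3, 2.46 (1.81 to 3.29) for B230216N24Rik, 2.45 (1.71 to 3.42) for Ccbe1 and 2.38 (1.88 to 2.96) for Rasgrf2. It was lowest for Fst, at 1.89 (1.08 to 3.09), and Evc2, at 1.89 (1.29 to 2.67). Rasgrf2 was higher in 9 of 10 libraries, Glra3 and B230216N24Rik in 8, Ccbe1 in 7, and Fst and Evc2 in 6. These values describe the markers of the rule, which were chosen with such results known, and the rest include glia.

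The label was checked against genes outside the rule. The 13 upper layer genes summed to 22.5 UMIs per 10000 in members and 13.1 in other kept nuclei, a ratio of 1.71 (1.63 to 1.80). By library the level in members was 19.5 at the lowest, 22.3 in the median and 26.8 at the highest, and that in other nuclei 12.3, 13.3 and 13.8, so that the ranges did not overlap. Nuclei with a marker sum of at least 3 that the rule removed had much the same level. It was 21.6 in the 194 with a Gad UMI and 21.8 in the 51 with Rorb or Foxp2 and no Gad. This excess was thus not particular to the members. Across all 10356 genes tested, 0.85% were higher past the fold and 8.88% lower, with a median log2 ratio of −0.03. Of the 11 upper layer genes tested, 4 were higher past the fold (Calb1, Cux2, Wfs1 and Bhlhe22), none was lower, and 10 had a level above that in other nuclei, with a median log2 ratio of 0.76. The exception was Pou3f3, a POU transcription factor, with a log2 ratio of −0.22. Calb1 was at 2.51, 3.48 and 5.05 UMIs per 10000 in the lowest, median and highest library of members, and at 1.19, 1.29 and 1.47 in other nuclei, a log2 ratio of 1.49. Cux2, a homeobox factor of upper layers, was at 1.15, 1.61 and 2.63 in members and 0.652, 0.757 and 0.926 in other nuclei. Every library of members lay above every library of other nuclei for these genes. Lamp5, a lysosome-associated membrane protein of neurons, had a log2 ratio of 0.76 and was higher in 10 of 10 libraries, from 4.81 to 9.32 against 3.51 to 4.11. Otof and Mdga1 were under the minimum of 300 UMIs and were not tested. Otof, the otoferlin gene, had 15 UMIs in members, or 0.210 per 10000 against 0.0508.

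General excitatory genes set the members apart less. The list of 9 had 53.9 UMIs per 10000 in members and 42.0 in other nuclei, and none of the 9 passed the fold either way. Its level was 64.3 in layer 4-type and 40.5 in layer 6-type nuclei. In other nuclei chosen for a UMI of Slc17a7, itself on the list, and no Gad it was 58.5. Slc17a7, the vesicular glutamate transporter VGLUT1, was at 2.88, 3.62 and 5.38 in the lowest, median and highest library of members and at 3.26, 3.66 and 3.83 in other nuclei. These ranges overlapped, and its log2 ratio was 0.05. Camk2a, a synaptic kinase, Nrgn, which binds calmodulin, and the transcription factor Mef2c were higher in 10 of 10 libraries, with log2 ratios of 0.68, 0.45 and 0.36. Neurod6 was lower in 9 of 10 libraries, with a log2 ratio of −0.91. Slc17a7 was seen in 34.0% of members, at a median depth of 1377 UMIs, in 21.2% of other nuclei, at 702, and in 7.06% of oligodendrocyte-type nuclei, at 383. Of the members, 316 had no UMI of Slc17a7, 52 had none of the 13 upper layer genes and 12 had none of the 9 excitatory genes.

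The same depth bears on other detection rates. Calb1 was detected in 34.7% of members (30.4 to 39.1), 8.10% of other nuclei and 2.84% of oligodendrocyte-type nuclei, and Nectin3 in 27.1%, 6.64% and 3.57%. After each nucleus was thinned to 300 UMIs, which left out 12 members and 6132 other nuclei, the Calb1 shares of members and others were 9.85% and 3.44%, and those of Nectin3 7.07% and 2.86%. For Lamp5 the share was 50.9% in members and 20.5% in others, and 18.4% and 9.76% after thinning. The order of the sets was the same at equal depth for these 3 genes, at smaller shares.

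Deep layer genes were low against all other kept nuclei, where 8.88% of all genes tested were lower past the fold. Of 9 layer 5 genes tested, 7 were lower past the fold and none had a level above that in other nuclei, and the list was at 2.68 UMIs per 10000 against 8.29. Pcp4, a calmodulin regulator, was at 0.589 against 2.59, Crym at 0.0561 against 0.349, and Fezf2, the transcription factor that specifies corticospinal neurons, at 0.126 against 0.644. All 3 were lower in 10 of 10 libraries. Of 6 layer 6 genes tested, 4 were lower past the fold. They were Ctgf, Rprm and the corepressor gene Tle4, with log2 ratios of −3.62, −2.25 and −1.32, and Syt6, a synaptotagmin, with 3 UMIs in members and a ratio of 0.198 (0.0406 to 0.580). Thsd7b lay above the level in other nuclei, with a log2 ratio of 0.41. Set beside layer 4-type nuclei, the layer 6 list was higher in members, at 4.02 against 2.97. The layer 5 list was lower there, at 2.68 against 4.49. Both layer 4 genes tested, Whrn and Rspo1, were lower past the fold, on 4 and 5 UMIs in members, and with depth weighting Rspo1 was not, at a log2 ratio of −0.89. The rule itself removed nuclei with Rorb, a layer 4 gene, or Foxp2, a layer 6 gene.

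**Figure D2:**
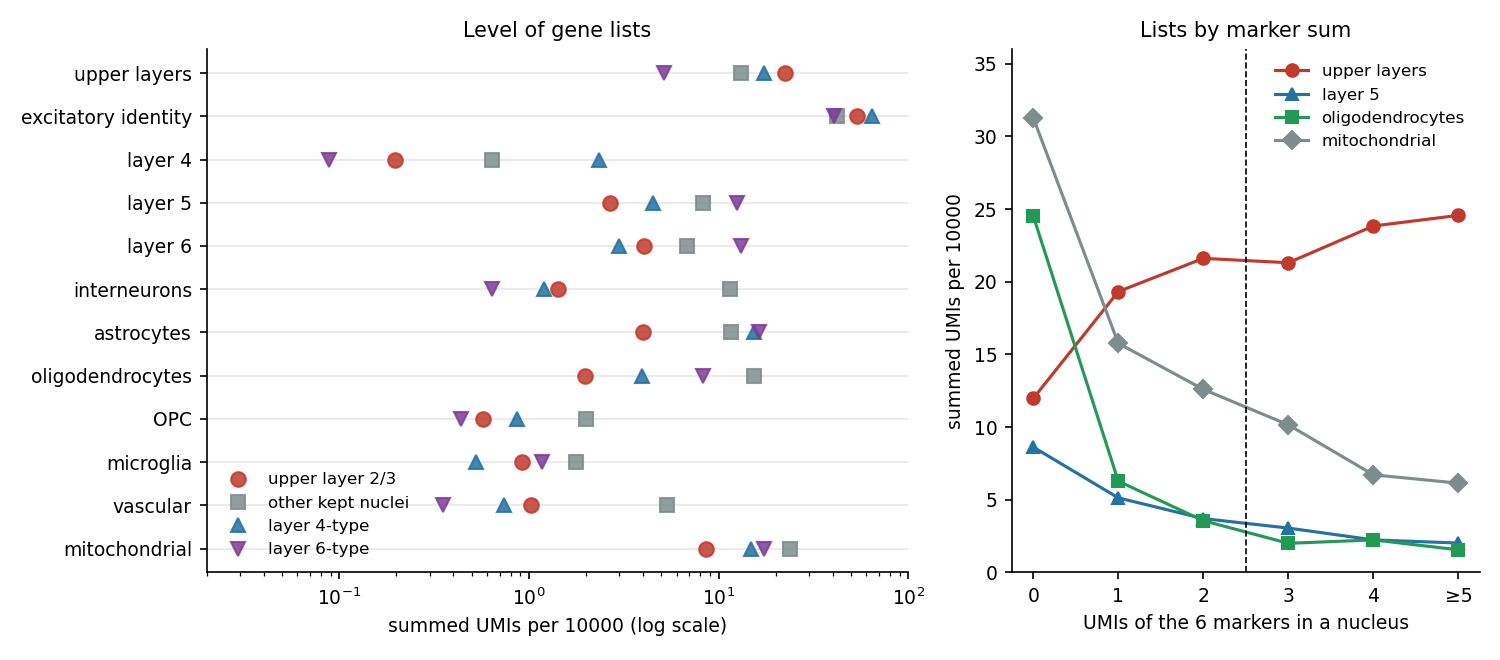
Left, summed level of 12 gene lists per 10000 non-viral UMIs on a log scale in members (circles), other kept nuclei (squares), layer 4-type nuclei (upward triangles) and layer 6-type nuclei (downward triangles). Right, 4 lists by the UMIs of the 6 markers in nuclei that met the other criteria, with the threshold as a dashed line. Members had the highest upper layer level of the 4 sets, 22.5, and the upper layer level was 12.0 at a marker sum of 0 and 24.6 at 5 or more.

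Pooled over libraries, genes of other cell types were lower in members than in all other kept nuclei, which include those cells. The counts below stand against 8.88% of all genes lower past the fold in that comparison, 8.63% with depth weighting and 4.97% against nuclei with Slc17a7. All 6 interneuron genes tested were lower past the fold, at 1.42 UMIs per 10000 against 11.4 for the list. The rule itself removed nuclei with Gad1 or Gad2. Astrocyte genes were at 3.99 against 11.7 (6 of 7 lower past the fold), oligodendrocyte genes at 1.98 against 15.4 (5 of 7), OPC genes at 0.575 against 1.99 (5 of 5), microglial genes at 0.925 against 1.77 (3 of 7) and vascular genes at 1.02 against 5.32 (5 of 6). Astrocyte genes were higher in members than in others in library 1-3, at 19.2 against 13.6. Microglial genes were so in libraries 1-1, at 4.69 against 1.96, and 2-3, at 1.25 against 1.01. With other nuclei weighted to the depth of members, astrocyte genes were at 8.01 in them (4 of 7 lower past the fold), oligodendrocyte genes at 7.77 (5 of 7), OPC genes at 0.909 (2 of 5), microglial genes at 1.12 (1 of 7) and vascular genes at 7.63 (6 of 6). Other nuclei with a UMI of Slc17a7 and no Gad had astrocyte genes at 3.65, OPC genes at 0.594, microglial genes at 0.673, interneuron genes at 1.01, vascular genes at 1.35 and oligodendrocyte genes at 4.79. Against them only the oligodendrocyte list still had most of its genes lower past the fold (5 of 7). The defining gene Mag of oligodendrocytes was at 0 in members. Dlx1 of interneurons was also at 0, but it had under 300 UMIs in all and was not tested. Of 479 members, 37 (7.72%) held 3 or more UMIs of at least 1 of these 6 lists, against 22.5% of other nuclei, and 12 held 10 or more. For microglial and vascular genes a single nucleus carried 54.5% and 47.9% of the UMIs, and for astrocyte genes 10.5%. In library 1-1 a single nucleus held 36 of the 66 microglial UMIs of all members, in library 2-4 another held 35 of the 73 vascular UMIs, and in library 1-3 another held 30 of the 285 astrocyte UMIs. Without the 37 nuclei, the upper layer ratio was 1.73, and 101 genes were higher and 1029 lower past the fold, against 88 and 920 with them. Doublets were not removed, and their part in these values was not tested.

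Against all other kept nuclei, 88 of 10356 genes were higher past the fold and 920 lower. With other nuclei weighted to the depth of the members in each library, 91 (0.879%) were higher and 894 (8.63%) lower. Of the genes past the fold, 16 were higher in 10 of 10 libraries (0.154% of those tested) and 360 lower in 10 of 10 (3.48%). The 12 genes with the largest ratio among the former were Ankrd6, Calb1, Gsg1l, Rgs8, Gm26890, Nectin3, Rfx3, Igfn1, Rgs14, Nwd2, Stum and Cux2.

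Ankrd6, whose protein diversin acts in Wnt and planar polarity signalling, was at 0.468, 0.613 and 2.15 UMIs per 10000 in the lowest, median and highest library of members and at 0.217, 0.263 and 0.337 in other nuclei, a ratio of 3.30 (2.51 to 4.28). Gsg1l, an auxiliary subunit of AMPA receptors, was at 0.866, 1.21 and 1.63 against 0.321, 0.427 and 0.517, a ratio of 2.76 (2.19 to 3.43). Nectin3, a cell adhesion molecule, was at 1.73, 2.40 and 3.89 against 0.806, 0.977 and 1.12, a ratio of 2.56 (2.19 to 2.98). Every library of members lay above every library of other nuclei for these 3 genes. Rgs8 and Rgs14, regulators of G protein signalling, had ratios of 2.62 (1.98 to 3.43) and 2.40 (1.56 to 3.54) on 58 and 27 UMIs, and Rgs14 in members reached as low as 0.137, within the range of other nuclei. Rfx3, a transcription factor of ciliated cells, had a ratio of 2.46 (1.70 to 3.47). Nwd2 was at 3.31 against 1.41, Stum at 1.54 against 0.669 and Igfn1 at 0.701 against 0.288, with no overlap between libraries. Gm26890 rested on 20 UMIs.

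**Figure D3:**
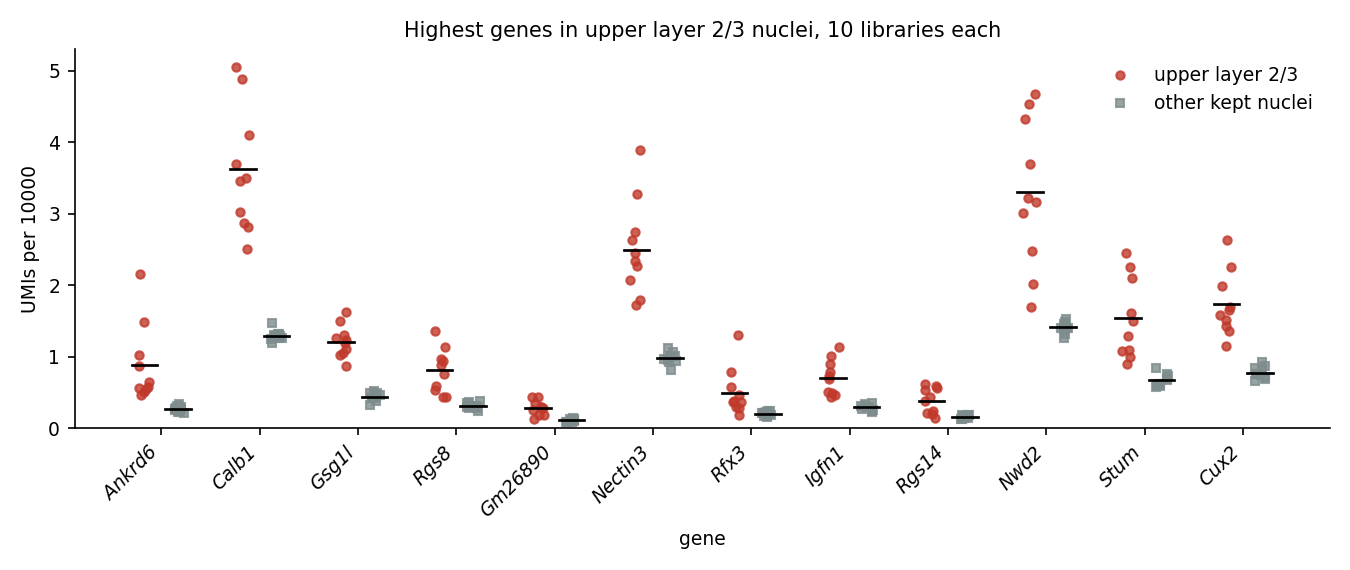
Level of the 12 highest named genes in UMIs per 10000 non-viral UMIs, with 1 point per library for members (circles) and other kept nuclei (squares), and the pooled level as a black line. For 9 of the 12 genes every library of members lay above every library of other nuclei, and Gm26890, Rfx3 and Rgs14 each had 1 library of members within that range.

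The 8 lowest of the genes that were lower in 10 of 10 libraries included markers of interneurons and oligodendrocytes. Vip, the peptide of an interneuron class, had 3 UMIs in members against 4353 in other nuclei, a ratio of 0.0268 (0.00553 to 0.0784). The rule removed nuclei with Gad1 or Gad2, which the other nuclei include, so this ratio is in part set by the rule. Against nuclei with Slc17a7 and no Gad the log2 ratio of Vip was −0.99, and against layer 4-type nuclei it was 0.21. Cldn11, a tight junction gene of myelin, had 7 UMIs against 8047. The MHC class II gene H2-Aa and the myelin gene Mag had none, and against the floor of 3 counts over all members they were at least 26.3-fold and 16.8-fold lower. The others were Ly6a (4 UMIs), the oligodendrocyte tetraspanin gene Tspan2 (4), Mog (3) and Islr (2).

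Among other nuclei with a UMI of Slc17a7 and none of Gad1 or Gad2, 5566 in number, the comparison is closer to excitatory neurons alone. Against them 146 genes (1.41%) were higher past the fold and 515 (4.97%) lower, of which 17 (0.164%) and 116 (1.12%) had that direction in 10 of 10 libraries. Calb1 had a log2 ratio of 1.82 there, Ankrd6 of 2.17, Rgs8 of 1.59, Gsg1l of 1.52, Nectin3 of 1.38, Cux2 of 1.15 and Nwd2 of 1.08. Stum, which passed the fold against all other nuclei, had 0.78. These nuclei were required to have a UMI of Slc17a7 and members were not, so the ratio of −1.76 for Slc17a7 itself is set by that choice.

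Against the 458 layer 4-type nuclei, 921 genes (8.89%) were higher past the fold and 694 (6.7%) lower, and the median log2 ratio over all genes was 0.03. In 10 of 10 libraries 62 (0.599%) were higher and 51 (0.492%) lower. Rgs8 had 58 UMIs in members and 3 in the layer 4-type nuclei, or 0.813 against 0.0543 per 10000, a ratio of 15.0 (4.87 to 74.7). Nov, which encodes a matricellular protein, was at 2.21 against 0.290, a ratio of 7.64 (4.56 to 13.7), and in libraries at 0.493, 2.04 and 3.46 against 0, 0.205 and 0.901. Against layer 6-type nuclei Nov was lower past the fold, at a log2 ratio of −2.39. With other nuclei weighted by depth its log2 ratio was 0.29. Ankrd6 was 6.09 times as high as in layer 4-type nuclei and Cfap69, a gene of cilia and flagella, 5.75 times. Fam184b, Slx4ip and Peak1 were also among the highest, on 22, 38 and 44 UMIs. In the other direction Whrn and Rspo1, both on the layer 4 list, had 4 and 5 UMIs in members against 64 and 39. Plcxd2 was at 0.603 against 4.28, the zinc finger gene Zmat4 at 0.491 against 2.95, and the metabotropic receptor gene Grm3 at 0.126 against 0.670. The upper layer list did not separate these sets in the same way, at 22.5 against 17.3, with 2 of 11 genes higher past the fold (Calb1 and Wfs1), none lower, and Cux1, Lhx2 and Bhlhe22 at log2 ratios of 0.09, 0.02 and −0.02.

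The layer 6-type nuclei were 276 in number. They held 454110 non-viral UMIs, against 552043 in layer 4-type nuclei, so counting error differs between these 2 comparisons. Against layer 6-type nuclei 1646 genes (15.9%) were higher past the fold and 1386 (13.4%) lower, with 285 (2.75%) and 144 (1.39%) so in 10 of 10 libraries. Fam60a, a gene of the SIN3 corepressor complex, was at 4.54 against 0.132 UMIs per 10000, on 324 and 6 UMIs, a ratio of 34.4 (15.6 to 94.4). Lingo2, a leucine-rich repeat protein of neurons, had a ratio of 28.4, Calb1 of 27.5, Rtn4rl1, a relative of the Nogo receptor, of 26.4, and Slc30a3, the zinc transporter of synaptic vesicles, of 23.6. Itga4, an integrin, had 89 UMIs against 3, a ratio of 18.9 (6.26 to 93.3), and the netrin receptor gene Unc5d had a ratio of 17.8. C1ql3, a secreted synaptic protein, had 85 UMIs against 1, a ratio of 54.1 (9.45 to 2162). All these genes had every library of members above every layer 6-type library. Not all were high against layer 4-type nuclei. There Slc30a3 and Unc5d had log2 ratios of −0.06 and −0.37, and Rtn4rl1, Fam60a and Itga4 of 0.47, 0.61 and 0.98. Lingo2, Calb1 and C1ql3 were past the fold there, at 1.24, 1.54 and 1.79. Of the 11 upper layer genes, 10 were higher past the fold, and the list was at 22.5 against 5.15.

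The 5 lowest genes against layer 6-type nuclei, Mgp, Thbd, Htra3, Col6a2 and F3, are better known from connective, vascular and glial cells than from neurons. Mgp, an inhibitor of calcification in the matrix, was at 0.126 UMIs per 10000 in members and 25.2 in layer 6-type nuclei, where it was found in 55 of 276. Of those 276 nuclei, 42 (15.2%) held 3 or more UMIs of these 5 genes, against 7 of 458 layer 4-type nuclei and 2 members. Astrocyte genes were at 16.4 per 10000 in the layer 6-type set, 15.4 in the layer 4-type set and 3.99 in members. With a UMI of Slc17a7 required, an alternative chosen after the data were seen, 116 layer 6-type and 131 layer 4-type nuclei remained, astrocyte genes were at 3.17 and 4.42, and Mgp was at 2.56 in the former. The number of genes higher and lower past the fold was then 2079 and 923 against layer 6-type nuclei and 1746 and 785 against layer 4-type nuclei. These sets held 179636 and 212830 non-viral UMIs, against 454110 and 552043 before. Fewer UMIs widen the counting error of each ratio, so these numbers cannot be compared with those of the full sets. The part of nuclei with such genes in the comparison was not tested further.

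The pathways of the markers were followed in their other genes, where of all genes tested 0.85% were higher and 8.88% lower past the fold, and 1.41% and 4.97% against nuclei with Slc17a7. Of 12 activin and follistatin genes tested, 1 was higher past the fold and 2 were lower. Acvr1c, the type I receptor ALK7, was at 0.292, 0.843 and 1.503 UMIs per 10000 in the lowest, median and highest library of members and at 0.271, 0.382 and 0.571 in other nuclei, a log2 ratio of 1.17, and was higher in 8 of 10 libraries. The type II receptor gene Acvr2a had a log2 ratio of 0.60 and Smad3, a transducer of the pathway, of 0.53, each higher in 9 of 10 libraries. The follistatin-like genes Fstl1 and Fstl5 were lower past the fold, at −1.39 and −1.09, and were not against nuclei with Slc17a7, at −0.66 and −0.38. The activin subunit gene Inhba was under the minimum for testing, with 16 UMIs in members, 0.224 per 10000 against 0.0818. Of 7 hedgehog and cilium genes tested none was higher and 3 were lower past the fold, namely Smo, Gli3 and Gas1 on 2, 3 and 13 UMIs in members. Against nuclei with Slc17a7 none of the 7 was lower past the fold, and the list was at 1.95 against 2.17. Boc, a hedgehog co-receptor, was lower in 10 of 10 libraries at a log2 ratio of −0.91. None of 3 genes around VEGF-C passed the fold. Of 9 Ras genes and exchange factors tested, only Rasgrp3 did, lower, on 3 UMIs, and Rasgrf1, the closest relative of Rasgrf2, was at 3.35 against 2.94. With so few genes in the hedgehog, VEGF-C and Ras lists and 0.85% of all genes higher past the fold, the absence of higher genes in these lists says nothing about the pathways.

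Genes of transmission are read against all genes tested, of which 8.88% were lower and 0.85% higher past the fold. Of 15 glycine and GABA-A receptor genes tested, none was higher and 2 were lower, or 1 with depth weighting and 1 against nuclei with Slc17a7. Gabra5, the subunit of extrasynaptic receptors, was at 0, 0.122 and 0.412 UMIs per 10000 in the lowest, median and highest library of members and at 0.530, 0.593 and 0.656 in other nuclei, a log2 ratio of −2.08. Glra2 had a log2 ratio of −1.04. Gabra2 and Gabra3 had levels above those in other nuclei in 9 and 10 of 10 libraries, at log2 ratios of 0.70 and 0.46. Of 20 glutamate receptor genes, none was higher and 4 were lower past the fold, namely the kainate receptor genes Grik3 (−2.54) and Grik1 (−1.87), the NMDA receptor gene Grin3a (−2.30) and Grm3 (−1.72). The AMPA receptor gene Gria3 was at 8.06 against 5.94 and was higher in 10 of 10 libraries. Against nuclei with Slc17a7, Grik3 and Grm3 were also lower past the fold, at −3.07 and −2.11, while Grin3a and Grik1 were at −0.88 and −0.76.

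Among 28 potassium and HCN channel genes none was higher and 4 were lower past the fold, where 8.88% of all genes were lower. With depth weighting 3 were lower, and against nuclei with Slc17a7 2 were. Kcnk2, a background potassium channel, was at 0, 0.279 and 0.877 UMIs per 10000 in the lowest, median and highest library of members and at 1.03, 1.19 and 1.297 in other nuclei. The ranges did not overlap, and its log2 ratio was −1.70, and −1.99 against nuclei with Slc17a7. Kcnip1, a potassium channel-interacting protein, was at −1.96 and −0.14 in the same comparisons, and Hcn2 was at −1.02 on 6 UMIs. None of 10 cadherin genes passed the fold. Of 25 axon guidance genes, none was higher and 4 were lower, namely Sema3c (−3.11), Nrp1 (−1.30), Sema3e (−1.28) and Sema6a (−1.07). Nrp1, a receptor for class 3 semaphorins, was at 0.238 against 0.587 and lower in 10 of 10 libraries. Slit3 and Slit2 had the largest positive log2 ratios of that list, at 0.98 and 0.64.

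Immediate early genes, which neurons induce with activity and also during dissociation, were at 32.6 UMIs per 10000 in members and 31.0 in other nuclei. None of 16 passed the fold, and 12 had a level above that in other nuclei, where the median log2 ratio of all genes was −0.03. Ptgs2, which was not on the list, was at 2.13 UMIs per 10000 in members and 0.778 in other nuclei. It was at 0.801 in other nuclei with Slc17a7 and no Gad. Egr1 was lower in 10 of 10 libraries, at 4.37 against 6.01. Npas4, Fosb, Egr4 and Bdnf had log2 ratios of 0.78, 0.75, 0.65 and 0.57. Of 11 interferon response genes, 6 were lower past the fold and none higher, against 8.88% and 0.85% of all genes, among them the MHC class I genes H2-K1 (−1.87) and H2-D1 (−1.61) and B2m (−1.56). Against nuclei with Slc17a7, where 4.97% of all genes were lower and 1.41% higher, none of the 11 was lower past the fold and 1 was higher. All 9 mitochondrial genes were lower past the fold, at 8.63 UMIs per 10000 against 23.8, and none of the 9 was so against nuclei with Slc17a7, at 12.1. The mitochondrial level was 31.3 at a marker sum of 0 and 6.14 at 5 or more, beside a median depth of 526 and 1618 UMIs. Its part in the other results was not tested.

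Viral transcripts were not used by the rule. Members carried a mean of 32.2 viral UMIs (31.6 to 32.7) and a median of 15, against 15.5 and 4 in other kept nuclei, a ratio of means of 2.07. In libraries 1-1 to 1-5 the mean in members was 44.0, 44.3, 35.6, 36.5 and 34.4. In libraries 2-1 to 2-5 it was 35.9, 30.5, 25.7, 19.6 and 6.38. Members had more viral UMIs than other nuclei in 9 of 10 libraries, with the ratio at 2.70 in library 1-1 and 0.852 in library 2-5, where other nuclei had 7.49. Viral UMIs were uneven among members. The 48 members with most of them held 46.1% of the 15402 viral UMIs, the highest had 484, and 21 had none.

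With other nuclei weighted to the depth of members in each library, the ratio was 1.19. The weighted ratio was 1.33 in set 1 and 1.01 in set 2, lowest in library 2-5 at 0.499, highest in library 1-2 at 1.45, and above 1 in 7 of 10 libraries. Without library 2-5 it was 1.22, and the unweighted ratio 2.14. Per 1000 non-viral UMIs, members had 21.6 viral UMIs and other nuclei 17.8. A viral UMI was found in 95.6% of members (93.4 to 97.3) and 86.0% of other nuclei, or 91.2% after weighting. The pooled excess over nuclei of like depth was therefore small and not present in every library. It differed by depth range. From 200 to 500 UMIs, with 27 members, the mean was 14.3 in members and 6.80 in other kept nuclei. From 500 to 1000 it was 19.6 and 11.7, and above 3000 it was 66.9 and 68.2.

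Layer 4-type and layer 6-type nuclei had fewer viral UMIs than members. Layer 4-type nuclei had a mean of 11.02 and layer 6-type nuclei of 14.0, and the ratio of members to them was 2.92 and 2.30. Members were above layer 4-type nuclei in 10 of 10 libraries and above layer 6-type nuclei in 9 of 10. With Slc17a7 required, the ratios were 2.27 and 1.94, and without library 2-5 they were 2.91 and 2.36. The 743 nuclei just outside the threshold had a mean of 29.2, which was 24.2 per 1000 non-viral UMIs against 21.6 in members, and 7.17 against 6.65 after thinning. The 51 nuclei that met the marker sum without Gad but held a UMI of Rorb or Foxp2 had a mean of 59.3, at a median depth of 1751 UMIs. Among nuclei with more than 1000 and up to 1500 non-viral UMIs, the mean was 24.3 in members, 16.5 in other nuclei with Slc17a7 and no Gad UMI, 10.5 in layer 4-type and 13.8 in layer 6-type nuclei. Above 3000 UMIs, where 17 members remained, it was 66.9 in members and 76.0 in nuclei with Slc17a7, so the order did not hold there. Nuclei with 3 or more Gad UMIs had a mean of 35.4, above that of members, and oligodendrocyte-type nuclei of 5.70. Layer and distance from the injection site cannot be told apart here.

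**Figure D4:**
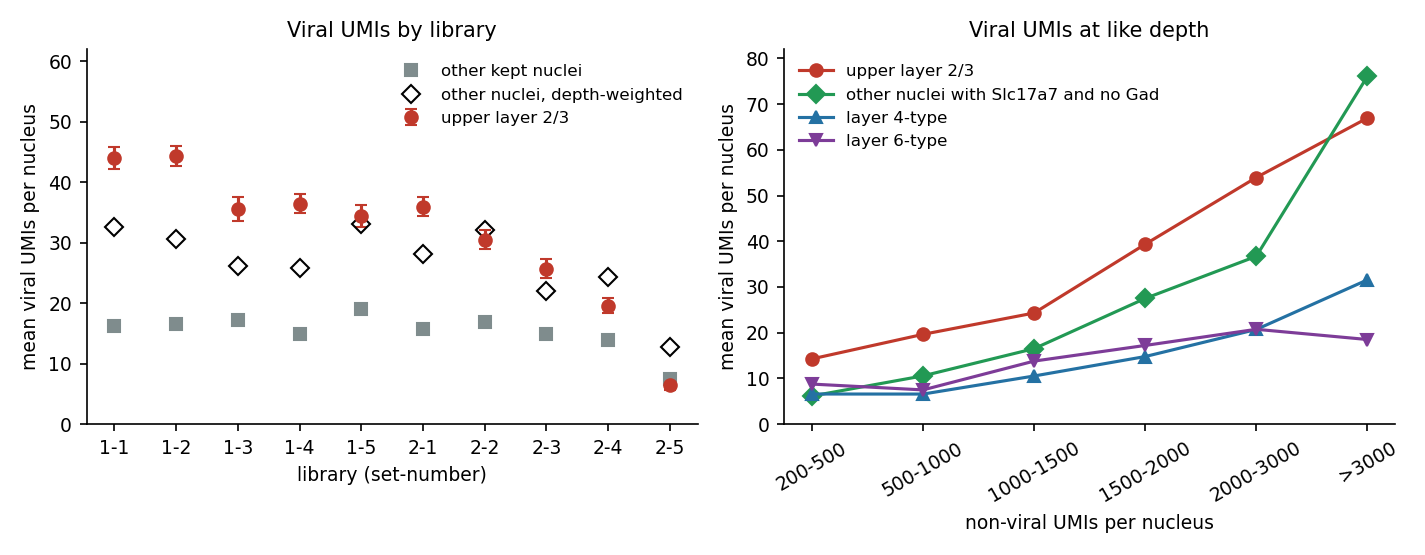
Left, mean viral UMIs per nucleus in each library for members (circles, exact 95% Poisson intervals), other kept nuclei (squares) and other nuclei weighted to the depth of members (open diamonds). Right, mean viral UMIs by non-viral depth in members, other nuclei with Slc17a7 and no Gad UMI, layer 4-type and layer 6-type nuclei. Members were above the weighted value in 7 of 10 libraries and below it in 2-2, 2-4 and 2-5, and up to 3000 UMIs they had the highest mean of the 4 sets in each depth range.

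Of the 287 GREs, 262 had a UMI in members, and 186 with at least 300 UMIs over all kept nuclei were examined. The fold was the mean UMIs per nucleus in members over that in other nuclei, each with 0.01 added. The median over the 186 GREs was 1.80, in step with the viral UMIs as a whole, and 125 (67.2%) were at least 1.5-fold higher and 3 (1.61%) at least 1.5-fold lower. Without library 2-5, 128 were higher. The minimum of 300 UMIs was applied anew to the remaining libraries there, so that count may not be out of the same 186. With other nuclei weighted by depth the median was 1.11, 36 (19.4%) were higher and 19 (10.2%) lower. As a share of the viral UMIs of each set, the median ratio was 0.947, 19 (10.2%) were higher and 41 (22%) lower. Members held UMIs of a median of 8 GREs and other nuclei of 3.

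The highest folds with the same direction in both library sets were those of GRE114, GRE284, GRE134, GRE13 and GRE95. GRE114 had a fold of 6.36, or 4.34 with depth weighting, and 86.0% of its UMIs in members came from 1 nucleus, without which it was 1.18. GRE284 had 116 UMIs in 20 members, a mean of 0.242 against 0.0461 and a fold of 4.49, with 4.77 in set 1 and 4.22 in set 2, and of 2.94 with depth weighting. By library its mean in members was 0.0238 at the lowest, 0.221 in the median and 0.660 at the highest, it was above that of other nuclei in 9 of 10 libraries, and without the nucleus that held most of it the fold was 3.24. GRE95 had 135 UMIs in 30 members, a fold of 4.15, of 2.48 with depth weighting and of 3.41 without its top nucleus, and was higher in 9 of 10 libraries. Their shares of viral UMIs were 2.53 (2.08 to 3.06) and 2.25 (1.87 to 2.68) times those in other nuclei. Without the top nucleus of each they were 1.82 and 1.85 times, below these intervals. The intervals take UMIs as independent and leave out differences between nuclei. GRE134 and GRE13 were higher in 5 and 4 of 10 libraries, with folds of 4.27 and 4.25 that were 2.92 and 2.64 with depth weighting and 2.42 and 3.09 without the top nucleus. At the other end GRE40 had 1 UMI in members against a mean of 0.0154 in other nuclei, a fold of 0.476 and a share ratio of 0.0654 (0.00165 to 0.366). At that level few or no UMIs are expected among the members of a single library. GRE151, GRE192, GRE220 and GRE11 followed with folds of 0.563, 0.570, 0.682 and 0.700 on 1, 3, 2 and 10 UMIs. With depth weighting the folds of these 5 GREs were 0.312, 0.382, 0.396, 0.457 and 0.438, in the same order from GRE40. In that order a UMI was found in 0.209%, 0.209%, 0.626%, 0.418% and 1.67% of members. In other nuclei the shares were 0.615%, 0.461%, 0.672%, 0.399% and 1.34%. GRE220 and GRE11 were thus not found in a smaller share of members.

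The hits of the study's screen for somatostatin interneurons were GRE12, GRE19, GRE22, GRE44 and GRE80. GRE80 had a fold of 1.60, GRE22 of 1.14, GRE44 of 1.73 and GRE19 of 1.09, each under the median of all GREs, and with depth weighting 0.929, 0.670, 1.01 and 0.679. Their share ratios were 0.782, 0.557, 0.852 and 0.533. Against other nuclei with Slc17a7 and no Gad, their folds were 1.87, 1.24, 1.53 and 0.948, with a median of 1.68 over the 186 GREs. The study chose the hits in nuclei of this experiment, by their excess in somatostatin cells over all other cells. Other kept nuclei include those somatostatin cells, so low folds in members are in part set by that choice. GRE12 had a fold of 3.53, with 70.8% of its UMIs in 1 nucleus of library 2-1, and of 1.14 without that nucleus. With depth weighting its fold was 2.14, and its share ratio was 1.92, both with that nucleus. Without that nucleus the share ratio was 0.577.

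**Figure D5:**
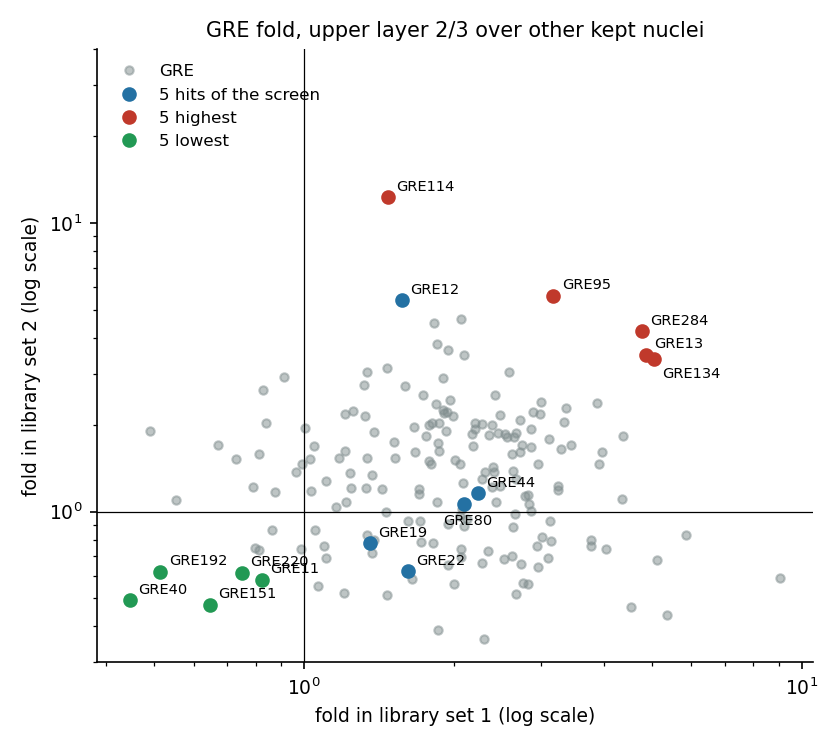
Fold of each of 186 GREs, members over other kept nuclei, in library set 1 (x axis) and set 2 (y axis), both on log scales, with lines at 1. GRE284 (4.77 and 4.22) and GRE95 (3.17 and 5.603) were high in both sets, GRE114 was at 1.48 in set 1 and 12.3 in set 2, and GRE40 was at 0.446 and 0.492.

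The sequences of GRE284 and GRE95, the 2 of the 5 highest GREs that were higher in 9 of 10 libraries, and of GRE40, the lowest, are shown for comparison, as the central 300 bases where an element is longer, on the plus strand of mm10 (GRCm38) from the RefSeq genome. GRE284 (chr12:70999406-70999705) lies within 3110056K07Rik outside its exons, and the nearest start of a coding gene is that of Arid4a, 16435 bases away. GRE95 (chr1:61539932-61540231) is intergenic, 98743 bases from the start of Pard3b. GRE40 (chr10:28555587-28555886) lies in an intron of Ptprk. Capitals mark TGANTCA, a pattern wider than the AP-1 site of Fos and Jun, which has C or G in the middle. It was searched on both strands, and 64 of the 287 GRE windows held it (22.3%). CAGATG, an E-box of neuronal bHLH factors, was in 120 (41.8%) and AGGTCA, the core of nuclear receptor sites such as those of Rorb, in 13 (4.53%). None of the 3 motifs was found in the GRE284 window, GRE95 held 1 TGANTCA and GRE40 held 2. TGANTCA reads the same on both strands, and a match is a description of the letters.
GRE284: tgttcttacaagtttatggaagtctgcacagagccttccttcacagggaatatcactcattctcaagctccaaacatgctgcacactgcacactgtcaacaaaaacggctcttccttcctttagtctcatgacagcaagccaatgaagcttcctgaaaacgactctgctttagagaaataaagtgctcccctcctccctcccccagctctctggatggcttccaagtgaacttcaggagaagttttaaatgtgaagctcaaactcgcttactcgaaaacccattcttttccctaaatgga
GRE95: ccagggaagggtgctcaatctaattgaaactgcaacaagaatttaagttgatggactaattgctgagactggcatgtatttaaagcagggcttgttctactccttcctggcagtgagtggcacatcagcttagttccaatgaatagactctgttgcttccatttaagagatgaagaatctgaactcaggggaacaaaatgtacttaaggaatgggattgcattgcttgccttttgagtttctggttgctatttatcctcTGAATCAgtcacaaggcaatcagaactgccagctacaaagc
GRE40: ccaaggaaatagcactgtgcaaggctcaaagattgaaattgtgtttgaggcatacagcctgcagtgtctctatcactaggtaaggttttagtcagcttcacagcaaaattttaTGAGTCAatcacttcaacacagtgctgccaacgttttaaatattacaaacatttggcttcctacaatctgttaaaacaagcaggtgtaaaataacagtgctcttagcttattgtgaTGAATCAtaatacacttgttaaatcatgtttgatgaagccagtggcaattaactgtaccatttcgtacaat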

How the data were processed

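Counts of UMIs per gene and nucleus were deposited by the authors for 10 snRNA-Seq libraries of 1 sample. Per the study's methods, reads were processed with the inDrops pipeline on GRCm38 with a contig per viral barcode, and viral transcripts were also enriched by PCR, so viral and other UMIs were not sampled alike. Viral rows were kept out of the non-viral totals. Genes with at least 300 UMIs over all kept nuclei were tested (10356 of 25871) by summed UMIs per 10000, and GREs with at least 300 UMIs by mean UMIs per nucleus, with a pseudocount of 0.01. Intervals were exact Poisson or binomial intervals at 95%, and ratios used the exact binomial interval of the counts. For weighting by depth, other nuclei were weighted to the members' numbers in 10 depth bins of each library. For a group at 0, the floor was 3 counts over the group. Scripts were tested on simulated data. Python 3.11.15, numpy 2.4.6, scipy 1.17.1, pandas 2.3.3 and matplotlib 3.10.9 were used.

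The members and lists were chosen with earlier results of these data known. Named genes were list members and, with the same direction in all 10 libraries, the 12 highest and 8 lowest against other nuclei and the 8 highest and 5 lowest against each layer type. Named GREs were the hits of the study's screen and the 5 highest and 5 lowest with the same direction in both library sets. Some named genes are not reported here. No doublet caller was run. GRE positions came from the deposited table of elements, whose columns on accessibility and on the authors' own specificity were not used, and sequences came from RefSeq with RefSeq and GENCODE annotation. Chromatin accessibility samples were not used here. Alternatives covered thresholds, markers, library sets, scaling, filters, the pseudocount and each library left out. Those without nuclei holding other types' UMIs and with Slc17a7 required in the layer types, and the layer types with each library left out, were added after seeing the data.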

Additional observations from a re-analysis of the deposited data

Results flagged for a closer look

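Of 30 sets of 10 library values examined, 7 had a library far from the rest, and chance alone flags about 1 set in 20. In library 2-5, other nuclei had 7.49 viral UMIs each, with 13.9 in the nearest library, and 81.0% of members had a viral UMI, with 94.3% in the nearest. The layer 4 list in members stood at 0.549 UMIs per 10000 in library 1-4, with 0.292 in the next.

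For 4 other lists the level in members stood apart in 1 library. Astrocyte genes were at 19.2 UMIs per 10000 in library 1-3, with 8.51 in the next library, and at 13.2 without the nucleus that held most of them, still above the next library. Microglial genes were at 4.69 in library 1-1, with 1.503 in the next, and at 0.251 without 1 nucleus. Vascular genes were at 5.05 in library 2-4, with 1.31 in the next, and at 0 without 1 nucleus. Mitochondrial genes were at 28.1 in library 1-3, with 10.8 in the next, and at 12.3 without 1 nucleus.

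Among the barcodes with 200 or fewer UMIs, which no comparison used, 17 of 15013 met the marker criteria, or 0.113% (0.0660 to 0.181), where a count of 0 allows up to 0.01998%. Nearly any count passes that limit, and the number to be expected at this depth was not computed.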

How the results depend on the processing

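Of 192 alternative values, 163 stayed within the set limits, 29 moved and none reversed. A count stayed when within 1.5-fold of its main value. The share and the ratios stayed when closer to the main value than the standard deviation over libraries. Only the ratios could be labelled reversed. Runs with 1 library left out share most nuclei with the main run, so these limits are wide for them. The upper layer ratio stayed within its limits under every alternative run. The share of members was 2.20% with more than 500 UMIs required, 3.78% and 0.232% with a marker sum of at least 2 and 5, 0.433% without Rasgrf2, 1.17% without B230216N24Rik, and 0.919% with 2 markers required. Genes higher past the fold numbered 46 and 551 at marker sums of 2 and 5, 329 without Rasgrf2, 142 with 2 markers, 146 against nuclei with Slc17a7, 171 by the mean over nuclei, and 2589, 259 and 19 at minimums of 1, 100 and 1000 UMIs. Genes lower numbered 2138 at a marker sum of 5, 1726 without Rasgrf2, 515 against nuclei with Slc17a7, and 8909, 1676 and 298 at those minimums. Each minimum tests another set of genes, so the counts at those minimums have other totals and cannot be set against the main counts. The viral ratio was 3.28 at a marker sum of 5, 1.19 with depth weighting, 1.21 per 1000 UMIs and 1.27 after thinning. GREs at least 1.5-fold higher numbered 72 in set 2 alone, 36 with depth weighting, 66 with a pseudocount of 0.1 and 19 as shares. The causes of these shifts were not tested. With each library left out in turn, the share was 1.43 to 1.54%, the upper layer ratio 1.66 to 1.74, the viral ratio 1.97 to 2.14 (2.71 to 3.09 over layer 4-type and 2.13 to 2.47 over layer 6-type nuclei), genes higher 62 to 101, genes lower 841 to 904, and GREs 110 to 128. No paired analysis was possible because the labels give all nuclei as 1 sample, with no replicate numbers shared between groups. Members and other nuclei were compared within each library as a description, and no test was run over libraries. Named genes with few UMIs in members are limited by depth, above all within 1 library.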
